A study of Arabidopsis thaliana with 12 samples.

Results

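Nitrogen remobilization in rosette leaves of *Arabidopsis thaliana* was followed through 10 genes: the glutamine synthetase genes *GLN1;1* (AT5G37600), *GLN1;2* (AT1G66200), *GLN1;3* (AT3G17820), *GLN1;4* (AT5G16570) and *GLN2* (AT5G35630), the glutamate dehydrogenase genes *GDH1* (AT5G18170), *GDH2* (AT5G07440) and *GDH3* (AT3G03910), the asparagine synthetase gene *ASN2* (AT5G65010) and the nitrate transporter gene *NRT1.7* (AT1G69870). They were taken by locus from the 23069 genes of the expression table, which lists all 10. RNA-seq was made from leaves of 30-day-old plants of the *kaku4-2* mutant, a T-DNA insertion line of *KAKU4*, and of the WT (Col-0), with 3 libraries of each genotype. *KAKU4* encodes a plant-specific protein at the nuclear periphery. The study describes the mutant as a knockdown. It is a single insertion line, so another change carried by this line cannot be told apart from the lowered expression of *KAKU4*. Values are FPKM, fragments scaled by transcript length and by the number of mapped fragments, so that levels of different genes can be set side by side.

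In a leaf, glutamine synthetase fixes ammonium into glutamine. The plastid enzyme, encoded by *GLN2*, takes up ammonium set free by photorespiration and nitrate reduction in the mesophyll, while the cytosolic enzymes of the *GLN1* genes are known for making glutamine for transport in the phloem, above all when leaves age and break down their proteins. Glutamate dehydrogenase sits in mitochondria and can release ammonium and a carbon skeleton from glutamate. Asparagine synthetase moves the amide group of glutamine to aspartate, which gives a nitrogen-rich amino acid for transport, and NRT1.7 loads nitrate of older leaves into the phloem.

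By the cutoff of the study, which asks for medians that differ by 0.6 or more in log2 FPKM with an unadjusted p of 0.05 or less, *GDH1* and *ASN2* were higher in *kaku4-2* and none of the 10 genes was lower. Of all 20638 genes tested, 5.02% were called higher and 6.64% lower by this cutoff, where p came from limma. At an adjusted p of 0.05 in limma none of the 10 genes was called, beside 0.480% of all genes, while 3 of the 10 (*GDH1*, *GDH2* and *ASN2*) had an unadjusted p under 0.05, as did 15.0% of all genes. When limma weighted the libraries by their estimated quality, 5 of the 10 had an adjusted p under 0.05, *GDH1*, *GDH2* and *ASN2* higher and *GLN1;3* and *NRT1.7* lower in *kaku4-2*. In that fit 24.5% of all genes passed this limit, 2173 higher and 2881 lower, and the estimate of its weights did not fully converge. The median log2 difference (*kaku4-2* minus WT, of FPKM + 0.1) of the 10 genes was 0.39 and that of all genes -0.02, and 7 of the 10 genes were above 0. The summed cytosolic *GLN1* transcripts were lower relative to *GLN2* in every *kaku4-2* library than in any WT library. The same held for 22.2% of all other genes tested when each was set against *GLN2*.

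The glutamine synthetase genes are a family of related coding sequences on 3 chromosomes, and a stretch of 30 bases in 1 exon of each gene is shown. Among stretches with at most 9 differences from *GLN1;1* in any gene, it was picked as the one that tells the others apart from *GLN1;1* best. The differences in it are therefore no measure of how alike the genes are as a whole. The stretch is printed 5′ to 3′ on the coding strand (RefSeq, TAIR10.1), and capitals mark the bases that differ from *GLN1;1*. It covers coding bases 37 to 66 in the 4 cytosolic genes and 211 to 240 in *GLN2*.
GLN1;1: tcagactccactgacaaaatcattgctgaa
GLN1;2: tcagacAAcaGtgaAaaGatcatCgctgaa
GLN1;3: AcCgaTGccacCgGGaaaatcatCgcCgaa
GLN1;4: tcCgaTtccactgacCaGatcatCgcCgaG
GLN2: AAaCCTtAcTctgacaGGatcattgctgaa
The stretches lie at chr5:14935591-14935620 (*GLN1;1*, minus strand), chr1:24657455-24657484 (*GLN1;2*, minus strand), chr3:6097539-6097568 (*GLN1;3*, plus strand), chr5:5424458-5424487 (*GLN1;4*, minus strand) and chr5:13831430-13831459 (*GLN2*, plus strand). *GLN1;2* differed from *GLN1;1* at 6 bases, *GLN1;3* at 9, *GLN1;4* at 7 and *GLN2* at 9. No window of 100 bases was shared between any pair of the 5 transcripts. The longest identical run was 44 bases, between *GLN1;1* and *GLN1;2*, and *GLN2* shared runs of 18 to 21 bases with the cytosolic genes. How fragments that match more than 1 gene were counted is not given in the sources used here.

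The libraries gave the following limits. *KAKU4* itself was measured at 0.402, 0.433 and 0.313 FPKM in *kaku4-2* and at 2.69, 3.61 and 2.51 FPKM in the WT, which matches the genotype labels. The table holds FPKM and no counts, so the number of fragments behind a single value is unknown and no counting interval is given. The study lists nearly equal numbers of mapped reads for all libraries. The FPKM sums were less even, at 1245640, 1285630 and 829805 in *kaku4-2* and 1298740, 1530890 and 1767460 in the WT. Every *kaku4-2* sum was below every WT sum, so the scale of the libraries cannot be told apart from genotype. *kaku4-2* replicate 3 stood apart: its correlation with any other library was at most 0.936, while each other library reached at least 0.973 with another. In this library 9 of the 10 genes were raised above the mean of the other *kaku4-2* libraries by more than 0.24 on the log2 scale, the median of 7417 genes of like transcript length (10th to 90th percentile -0.88 to 1.23). The differences of the 10 genes are therefore also given without it. In that fit the median log2 difference of the 10 genes was 0.08, 5 were above 0 and only *GDH1* was called higher and none lower, beside a median of -0.05 over all genes, of which 4.65% were called higher and 6.66% lower. Leaf mesophyll markers were abundant in all libraries, with summed levels of 11918 to 13303 FPKM in *kaku4-2* and 14152 to 19213 FPKM in the WT for the 3 of 4 genes analysed. None of these was called with all libraries. Without *kaku4-2* replicate 3 *LHCB2.1* was called lower, with a log2 difference of -0.71 (unadjusted p = 0.021, limma). Summed seed markers reached at most 0.301 FPKM in *kaku4-2* and 0.149 FPKM in the WT, and summed flower markers 1.48 FPKM in *kaku4-2* and 2.23 FPKM in the WT. Summed root markers were at 39.6 to 67.6 FPKM in *kaku4-2* and 29.9 to 46.7 FPKM in the WT, nearly all of it from *PYK10*. In whole leaves, a change in the number of cells of a type and a change of RNA per cell cannot be told apart.

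*GLN2* (chr5:13830429-13833542, plus strand, RefSeq annotation of TAIR10.1, as for the genes that follow) was the most abundant of the 10 genes. It was measured at 235, 239.6 and 473 FPKM in *kaku4-2* and at 248, 206 and 177 FPKM in the WT. The highest value was that of *kaku4-2* replicate 3, and WT replicate 1 lay above the other *kaku4-2* libraries, so the genotypes overlapped. The log2 difference was 0.52 ± 0.33 (SE, n = 3 each), with an adjusted p of 0.414 in limma, and 0.19 without *kaku4-2* replicate 3.

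*GLN1;2* (chr1:24655115-24657703, minus strand), whose cytosolic enzyme is known for a low affinity for ammonium, was the most abundant cytosolic gene. Its levels were 166, 157 and 197 FPKM in *kaku4-2* and 198, 194 and 169 FPKM in the WT. The ranges covered much of each other, and the log2 difference was -0.11 ± 0.27 (adjusted p = 0.831, limma), or -0.21 without *kaku4-2* replicate 3. Its sign depended on scaling, since it was 0.36 when all libraries were brought to the same FPKM sum and 0.32 after quantile normalization. It made up 73.1 to 83.7% of the cytosolic FPKM in *kaku4-2* and 81.4 to 85.2% in the WT.

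*GLN1;1* (chr5:14933286-14935885, minus strand), the cytosolic gene best known as rising in senescing leaves, was measured at 22.5, 24.0 and 52.0 FPKM in *kaku4-2* and at 19.9, 24.1 and 18.6 FPKM in the WT. Only *kaku4-2* replicate 3 stood clear of the WT. The log2 difference was 0.55 ± 0.33 (adjusted p = 0.393, limma) and 0.17 ± 0.20 without that library. Its share of the cytosolic FPKM was 11.4, 12.5 and 19.3% in *kaku4-2* and 8.57, 10.11 and 9.23% in the WT.

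*GLN1;3* (chr3:6097201-6099595, plus strand), whose expression in vascular tissue is known, was at 5.51, 7.93 and 15.9 FPKM in *kaku4-2* and at 9.22, 16.2 and 9.97 FPKM in the WT. *kaku4-2* replicates 1 and 2 were below every WT library, and replicate 3 was among the highest. The log2 difference was -0.36 ± 0.39 (adjusted p = 0.609, limma) over all libraries. Without *kaku4-2* replicate 3 it was -0.78 ± 0.29, with an unadjusted p of 0.0218 and an adjusted p of 0.240, and the gene still missed the fold cutoff on medians. At the same FPKM sum the sign turned, with a log2 difference of 0.10.

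*GLN1;4* (chr5:5421589-5424749, minus strand) was the least abundant *GLN1* gene of the 4, at 4.17, 4.34 and 4.79 FPKM in *kaku4-2* and 5.17, 4.01 and 3.73 FPKM in the WT. The genotypes overlapped and the log2 difference was 0.05 ± 0.32 (adjusted p = 0.935, limma). This value is close to 0 and turned below it without *kaku4-2* replicate 3, without WT replicate 3 and after quantile normalization.

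**Figure D1:**
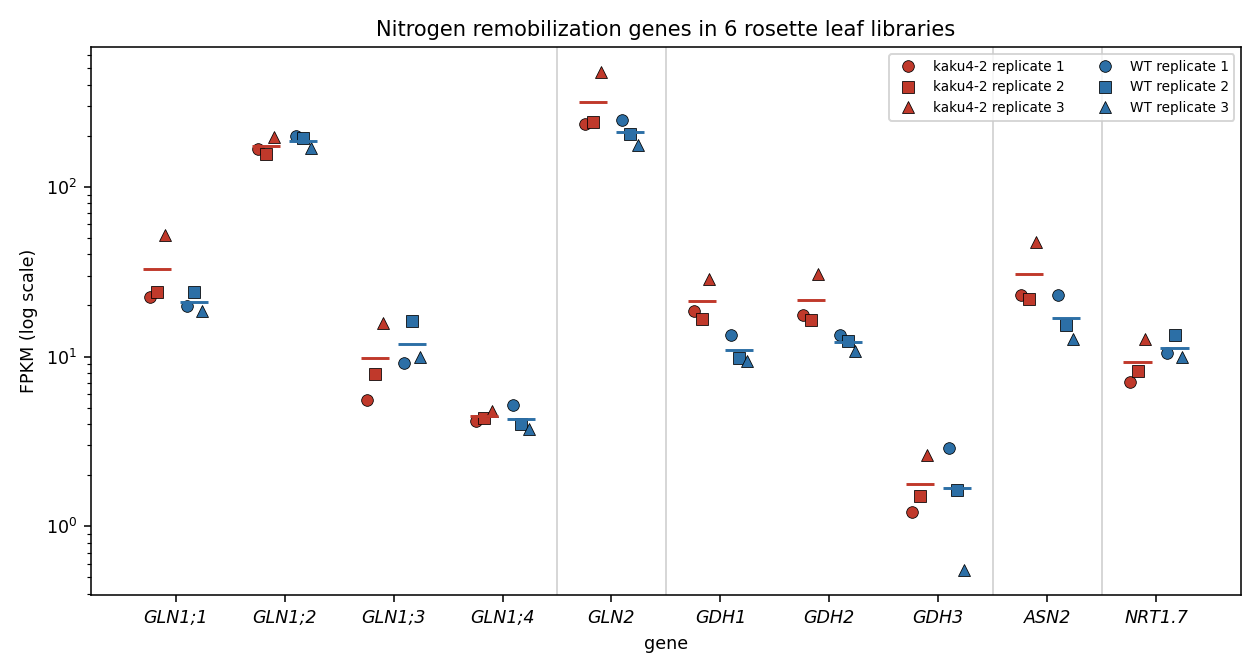
FPKM (log axis) of the 10 nitrogen remobilization genes in each of the 3 *kaku4-2* (red) and 3 WT (blue) libraries, with a marker shape for each replicate number and a line at each genotype's mean. The *kaku4-2* points of *GDH1* (16.7 to 28.7 FPKM) and *GDH2* (16.4 to 30.7 FPKM) lie above all WT points, the other 8 genes overlap, and *kaku4-2* replicate 3 is the highest *kaku4-2* point for every gene.

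The balance of cytosolic against plastid glutamine synthetase was taken inside each library, as the summed FPKM of the 4 *GLN1* genes over the FPKM of *GLN2*, which does not depend on how a library was scaled as a whole. The ratio was 0.845, 0.805 and 0.571 in *kaku4-2* and 0.935, 1.16 and 1.14 in the WT. All *kaku4-2* libraries lay below all WT libraries, as they did for 22.2% of all other single genes tested when each was set against *GLN2*. As log2 the ratio averaged -0.45 ± 0.31 in *kaku4-2* and 0.10 ± 0.17 in the WT (SD, n = 3 each), a difference of -0.55. Without *kaku4-2* replicate 3 the difference was -0.38. No p is given for a sum over chosen genes.

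Neither part of the ratio separated the genotypes by itself. The cytosolic sum was 198, 193 and 270 FPKM in *kaku4-2* and 232, 238 and 201 FPKM in the WT, so that the genotypes overlapped. *GLN2* also overlapped, at 235 to 473 FPKM in *kaku4-2* and 177 to 248 FPKM in the WT. As a share, which restates the ratio, plastid *GLN2* made up 54.2, 55.4 and 63.6% of all glutamine synthetase FPKM in *kaku4-2*. In the WT this share was 51.7, 46.3 and 46.8%. The *kaku4-2* library with the lowest ratio was replicate 3, where *GLN2* was highest, and the WT library with the lowest ratio was replicate 1, where *GLN2* was also the highest of its genotype.

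Set against *GLN2* one at a time, 3 of the 4 cytosolic genes had lower log2 ratios in every *kaku4-2* library than in any WT library. The ratios share *GLN2* as their denominator, and the same was found for 22.2% of all other genes tested when each was set against *GLN2*. The difference was -0.63 for *GLN1;2*, -0.88 for *GLN1;3* and -0.46 for *GLN1;4*, each with an exact permutation p of 0.1 (two-sided), which is the smallest that 3 against 3 libraries allow. Adjusted over the 4 ratios by the method of Benjamini and Hochberg, each permutation p was 0.133. Without *kaku4-2* replicate 3 these differences were -0.40, -0.96 and -0.19. For *GLN1;1* the log2 ratio to *GLN2* was -3.37, -3.31 and -3.18 in *kaku4-2* and -3.63, -3.09 and -3.25 in the WT. The difference was 0.03 (exact permutation p = 0.9) and changed sign when *kaku4-2* replicate 3 or WT replicate 1 was left out. Whether *GLN1;1* differed from the other cytosolic genes in this respect was not tested.

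**Figure D2:**
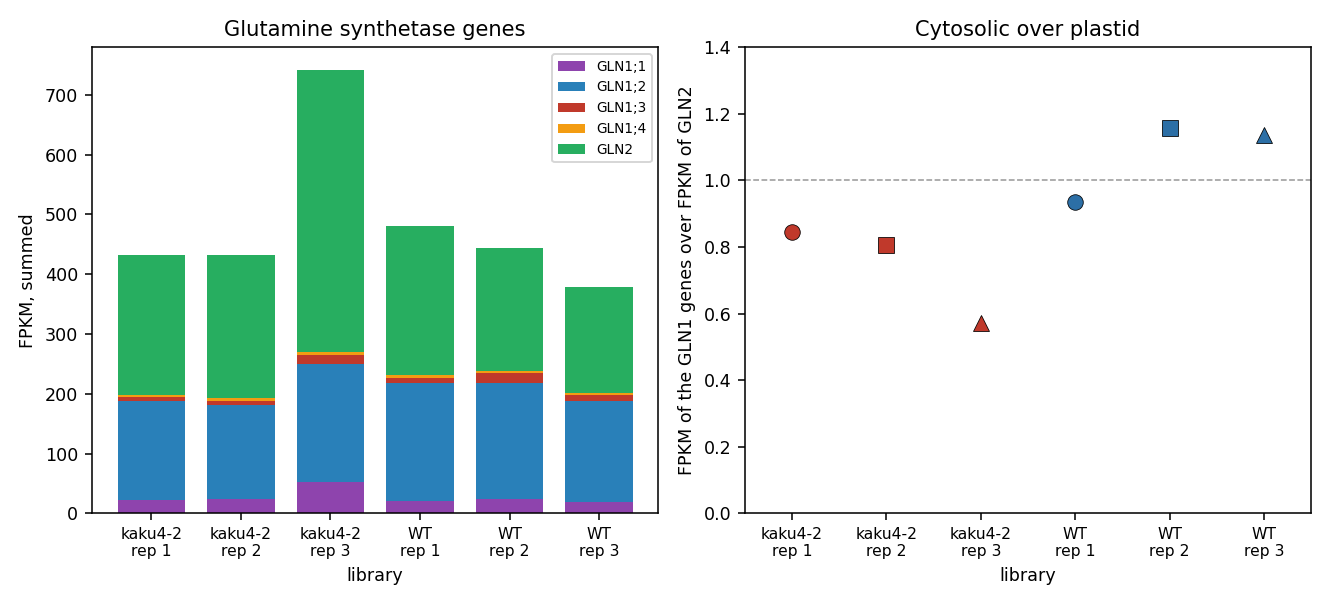
Left, FPKM of the 5 glutamine synthetase genes stacked for each *kaku4-2* and WT library. Right, the ratio of summed *GLN1* FPKM to *GLN2* FPKM in the same libraries, where the *kaku4-2* points (0.571 to 0.845) lie below the WT points (0.935 to 1.16) and the dashed line marks equal levels.

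*GDH1* (chr5:6006035-6008726, plus strand), which encodes one of the subunits of mitochondrial glutamate dehydrogenase, had the largest log2 difference of the 10 genes. It was measured at 18.6, 16.7 and 28.7 FPKM in *kaku4-2* and at 13.4, 9.81 and 9.47 FPKM in the WT. Every *kaku4-2* library was above every WT library, *kaku4-2* replicate 3 by the widest margin. Means were 21.3 ± 6.46 FPKM in *kaku4-2* and 10.9 ± 2.18 FPKM in the WT (SD, n = 3 each), and the log2 difference was 0.94 ± 0.30 (SE), or 1.92-fold, with an unadjusted p of 0.00839 and an adjusted p of 0.228 in limma. Without *kaku4-2* replicate 3 the log2 difference was 0.70 ± 0.22 with an unadjusted p of 0.0101. *GDH1* was called higher by the study's cutoff in each of the 18 alternative fits, over which its adjusted p ranged from 0.00291 (array weights) to 0.779 (without WT replicate 3).

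*GDH2* (chr5:2355759-2358241, plus strand), which encodes the other main subunit, was at 17.6, 16.4 and 30.7 FPKM in *kaku4-2* and at 13.4, 12.3 and 10.8 FPKM in the WT. Here too all *kaku4-2* libraries were above all WT libraries. The log2 difference was 0.77 ± 0.31 (unadjusted p = 0.0258, adjusted p = 0.295, limma). The log2 ratio of medians, 0.52, did not reach 0.6, so *GDH2* was not called. It was called without *kaku4-2* replicate 1 or 2 or WT replicate 1. Without *kaku4-2* replicate 3 the log2 difference was 0.48 with an unadjusted p of 0.0367. *GDH1* and *GDH2* were the 2 of the 10 genes whose genotypes did not overlap, beside 7.92% of all genes tested with every *kaku4-2* library above every WT library and 15.0% with every one below.

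*GDH3* (chr3:1006780-1009018, plus strand), the least expressed subunit gene, known from roots, was measured at 1.21, 1.501 and 2.63 FPKM in *kaku4-2* and 2.87, 1.64 and 0.550 FPKM in the WT. The WT libraries alone spanned the whole *kaku4-2* range, and the log2 difference of 0.26 ± 0.54 (adjusted p = 0.807, limma) turned to -0.05 without *kaku4-2* replicate 3 and to -0.35 without WT replicate 3. Its locus also overlaps AT3G03920 on the opposite strand by 24 bases, a gene at 144 to 287 FPKM in *kaku4-2* and 311 to 484 FPKM in the WT. *GDH1* overlaps AT5G18180 on the opposite strand by 166 bases, a gene at 0.816 to 1.15 FPKM in *kaku4-2* and 0.814 to 2.402 FPKM in the WT, below *GDH1* in every library. Use of strand in the counting is not given in the sources used here, so reads of such pairs may not be told apart, and *GDH3* values are the more uncertain for it.

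Together the *GDH* genes summed to 37.4, 34.5 and 62.0 FPKM in *kaku4-2* and to 29.7, 23.7 and 20.8 FPKM in the WT. *GDH3* made up 3.23 to 4.35% of this sum in *kaku4-2* and 2.64 to 9.68% in the WT. The ratio of *GDH1* to *GDH2*, whose proteins build mixed hexamers, was 1.05, 1.02 and 0.935 in *kaku4-2* and 1.00, 0.799 and 0.879 in the WT, with overlap. Relative to *GLN2* the *GDH* sum was 0.159, 0.144 and 0.131 in *kaku4-2* and 0.120, 0.115 and 0.117 in the WT. This last ratio does not overlap between genotypes, but it was chosen after its values were seen and gets no test. The longest run that *GDH1* and *GDH2* transcripts share is 41 bases, that of *GDH1* and *GDH3* is 59 bases, and no window of 100 bases is shared.

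The 200 bases before the annotated start of *GDH1* and *GDH2* are shown because both genes were higher in every *kaku4-2* library. Both strands were searched for the G-box CACGTG, a core bound by bZIP and bHLH factors, for the W-box of WRKY factors as TTGACC or TTGACT, and for GATAAG, a form bound by GATA factors. Capitals mark the matches (RefSeq, TAIR10.1, plus strand, chr5:6005835-6006034 for *GDH1* and chr5:2355559-2355758 for *GDH2*).
GDH1: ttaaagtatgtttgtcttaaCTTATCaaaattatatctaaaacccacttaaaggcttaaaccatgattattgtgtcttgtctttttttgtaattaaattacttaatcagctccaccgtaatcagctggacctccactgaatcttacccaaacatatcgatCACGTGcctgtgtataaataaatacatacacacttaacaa
GDH2: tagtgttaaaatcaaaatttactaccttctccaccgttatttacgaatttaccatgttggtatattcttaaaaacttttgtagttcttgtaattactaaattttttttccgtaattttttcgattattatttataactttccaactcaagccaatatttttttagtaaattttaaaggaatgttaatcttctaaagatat
The *GDH1* stretch held a G-box and, as its reverse complement CTTATC, 1 GATAAG, and these do not overlap. The *GDH2* stretch held none of the 4. Over the same 200 bases of 22880 genes, 6.28% held a G-box, 9.99% GATAAG and 24.4% a W-box of either form. Among the 10 genes the W-box was found at *GLN1;2*, *GLN1;4* and *GLN2*, and the G-box at *GDH1* only. A match is a string of letters, not a binding site.

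**Figure D3:**
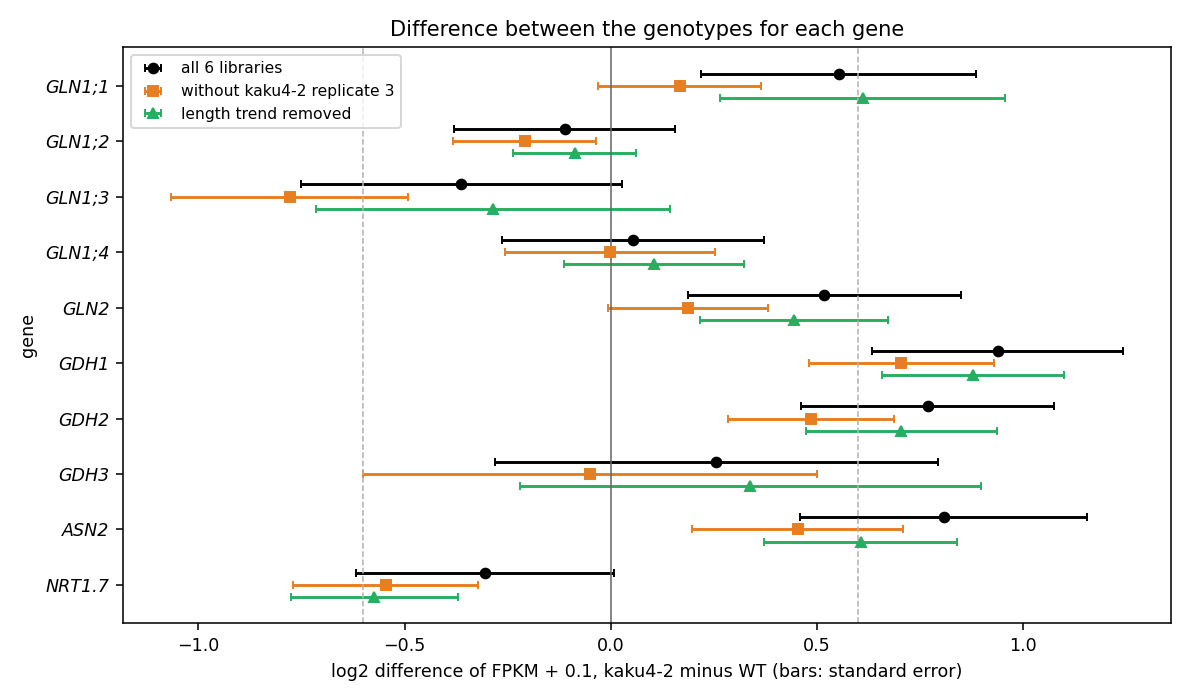
Log2 difference (*kaku4-2* minus WT, of FPKM + 0.1) with its standard error for each of the 10 genes over all 6 libraries (black), without *kaku4-2* replicate 3 (orange) and after a trend of the difference with transcript length was removed (green). *GDH1* keeps a difference past the dashed line at 0.6 in all 3 fits (0.94, 0.70 and 0.88). Without the library *GDH1*, *GDH2*, *GLN1;1*, *GLN2* (0.19) and *ASN2* (0.45) move closer to 0. *GLN1;2*, *GLN1;3* and *NRT1.7* move farther below it.

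*ASN2* (chr5:25969035-25972575, plus strand), one of 3 asparagine synthetase genes and known as light-induced, was called higher in *kaku4-2*, on the edge of the cutoff. It was measured at 23.2, 21.9 and 47.1 FPKM in *kaku4-2* and at 23.0, 15.3 and 12.6 FPKM in the WT. WT replicate 1 lay within the *kaku4-2* range, so the genotypes overlapped. Means were 30.7 ± 14.2 FPKM in *kaku4-2* and 17.0 ± 5.41 FPKM in the WT (SD, n = 3 each). The log2 difference was 0.81 ± 0.35, or 1.75-fold, with an unadjusted p of 0.0366 and an adjusted p of 0.315 in limma, and the log2 ratio of medians was 0.60. Without *kaku4-2* replicate 3 the log2 difference was 0.45 and the call was lost, as it was without WT replicate 2 or WT replicate 3. *ASN2* was called higher under 12 of 18 alternatives.

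*NRT1.7* (chr1:26315787-26320233, plus strand) was the only transporter of the 10 genes. Its levels were 7.08, 8.18 and 12.6 FPKM in *kaku4-2* and 10.5, 13.3 and 9.91 FPKM in the WT. *kaku4-2* replicates 1 and 2 were below every WT library, while replicate 3 lay within the WT range. The log2 difference was -0.31 ± 0.31 (adjusted p = 0.592, limma), -0.55 without *kaku4-2* replicate 3 (unadjusted p = 0.035) and -0.57 after the length trend was removed (unadjusted p = 0.0211). It was not called lower in any of these fits, and at the same FPKM sum the sign turned (0.16). *NRT1.7* acts in the phloem of minor veins, and the companion cell markers *SUC2*, *APL* and *AHA3* summed to 23.0 to 62.7 FPKM in *kaku4-2* and 26.7 to 36.4 FPKM in the WT. None of the 3 markers was called, and their part in the result was not tested.

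The order of the levels, by median FPKM, was alike at both ends in the genotypes. In *kaku4-2* it ran *GLN2*, *GLN1;2*, *GLN1;1*, *ASN2*, *GDH1*, *GDH2*, *NRT1.7*, *GLN1;3*, *GLN1;4* and *GDH3*. Neighbours overlapped in their ranges from the third to the sixth place and between the seventh and the eighth, and the other steps were clear of each other. In the WT the order differed only in that *GDH1* stood after *GDH2*, *NRT1.7* and *GLN1;3*. There the first place overlapped the second, as did each neighbouring pair from the third to the eighth place. *GDH1* thus stood above *NRT1.7* in every *kaku4-2* library (16.7 to 28.7 against 7.08 to 12.6 FPKM), while in the WT their ranges overlapped (9.47 to 13.4 and 9.91 to 13.3 FPKM).

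The genes whose profile over the 6 libraries was closest to that of *GLN1;1* and *GLN2* were found by the root mean square distance of log2(FPKM + 0.1), centred on its mean. For the cytosolic gene these were AT2G32730, a subunit of the 26S proteasome (0.05), *CLPC1*, a plastid chaperone (0.05), and AT1G66910, a protein kinase (0.06). For *GLN2* they were AT2G42690, an alpha/beta-hydrolase (0.03), AT2G25760, a protein kinase (0.03), and *VHA-A*, subunit A of the vacuolar ATPase (0.04). All 6 were highest in *kaku4-2* replicate 3. The closest neighbour of *GLN2*, AT2G42690, was at 51.2, 51.5 and 101.9 FPKM in *kaku4-2* and at 55.0, 43.1 and 37.8 FPKM in the WT.

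The other genes of leaf nitrogen metabolism were taken as lists by function, of which 54 of 56 genes were analysed here. The study's cutoff called 3 of them higher and 5 lower in *kaku4-2*, beside 5.02% higher and 6.64% lower of all genes tested. Their median log2 difference was 0.04, beside -0.02 over all genes. Nitrate reduction and glutamate synthase (GOGAT) feed and follow glutamine synthetase. Of these 7 genes, with a list median of 0.51 (0.13 without *kaku4-2* replicate 3), 1 was called higher. That gene was *NIA1*, a nitrate reductase, at 3.84, 5.03 and 16.1 FPKM in *kaku4-2* and 2.68, 4.51 and 2.17 FPKM in the WT. *kaku4-2* replicate 3 lay far above the other libraries, and the call was lost without it, and also without WT replicate 1 or 3.

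Among 9 genes of asparagine and aspartate metabolism 2 were higher and 1 was lower in *kaku4-2*. The list median was 0.47, and 0.20 without *kaku4-2* replicate 3. *ASP3*, an aspartate aminotransferase, was at 37.2, 32.5 and 40.8 FPKM in *kaku4-2* and 29.0, 17.9 and 18.1 FPKM in the WT, with no overlap and a log2 difference of 0.79 ± 0.29 (unadjusted p = 0.0149, limma). It was still called without *kaku4-2* replicate 3, but not without WT replicate 2 or 3. *ASN1*, the asparagine synthetase known as induced in the dark, was at 11.5, 11.1 and 23.8 FPKM in *kaku4-2* and 7.34, 10.6 and 6.05 FPKM in the WT. Its log2 difference was 0.89 ± 0.36, and the call was lost without *kaku4-2* replicate 3 and without WT replicate 1 or 3. So *ASN1* and *ASN2* were both called higher with all libraries, and neither without this library. *ASPGA1*, an asparaginase that breaks asparagine down, was lower, at 11.3, 17.9 and 15.7 FPKM in *kaku4-2* and 18.8, 35.5 and 26.5 FPKM in the WT. Its log2 difference was -0.82 ± 0.31, and the call was lost without *kaku4-2* replicate 1 or WT replicate 2 or 3. It was also lost at the same FPKM sum and after the length trend was removed, and held in 12 of 18 alternatives.

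Of 11 nitrate and ammonium transporter genes 3 were called lower and none higher, with a list median of -0.44 (-0.19 without *kaku4-2* replicate 3). *AMT1;2*, an ammonium transporter, was at 12.1, 11.2 and 15.0 FPKM in *kaku4-2* and 36.2, 46.4 and 40.0 FPKM in the WT. The genotypes were far apart, and with a log2 difference of -1.67 ± 0.27 it was the one gene of the lists with an adjusted p under 0.05 (0.0121, limma). Its adjusted p ranged from 2.58e-07 to 0.145 over the alternatives and was 0.00286 without *kaku4-2* replicate 3. It was above 0.05 without any one of WT replicates 1, 2 and 3, and at the same FPKM sum (0.143, log2 difference -1.21). The study's cutoff called the gene lower in each of the 18 alternatives. *NRT1.11*, which takes part in the transfer of nitrate between xylem and phloem of leaves, was at 56.3, 51.9 and 32.9 FPKM in *kaku4-2* and 70.8, 81.2 and 88.7 FPKM in the WT, and *NRT2.7*, known as a vacuolar nitrate transporter of seeds, had a log2 difference of -0.60. Both calls were lost without *kaku4-2* replicate 3, WT replicate 2 or WT replicate 3, and that of *NRT2.7* without any one *kaku4-2* library. Neither gene was called with median ratio scaling or at the same FPKM sum. Over the 18 alternatives the calls held in 12 (*NRT1.11*) and 7 (*NRT2.7*). For 10 genes of photorespiration, the main source of ammonium for *GLN2*, the list median was -0.08. Without *kaku4-2* replicate 3 the middle values of the list were -0.26 and -0.43. Called lower in that fit were *AGT1*, *GLDP2* and *DIT1* (log2 differences -0.57, -0.86 and -0.70), beside 6.66% of all genes. With all libraries 1 of the 10 photorespiration genes was called lower and none higher. It was *AGT1*, a peroxisomal aminotransferase, at 1592, 1646 and 880 FPKM in *kaku4-2* and 1930, 2514 and 2879 FPKM in the WT. The call was lost without *kaku4-2* replicate 1 or any one WT library. It was also lost with median ratio scaling, at the same FPKM sum and with a replicate block, and held in 9 of the 18 alternatives. None of the 7 amino acid and urea transporter genes and none of the 10 genes of amino acid breakdown was called, with medians of -0.15 and 0.11.

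**Figure D4:**
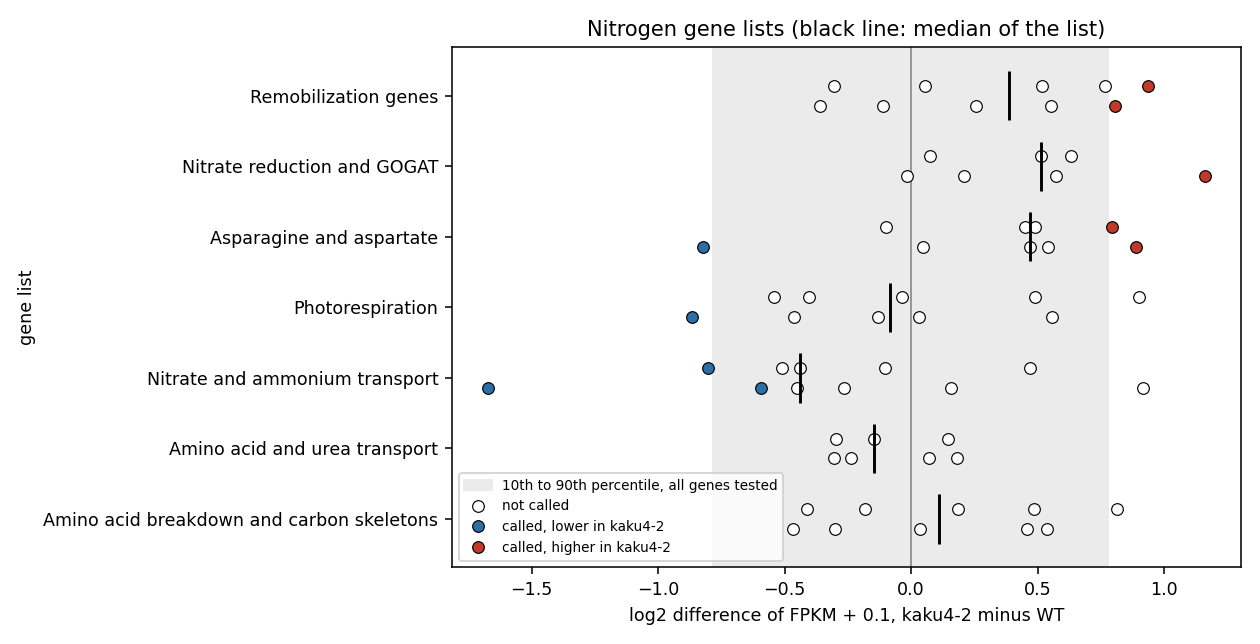
Log2 difference (*kaku4-2* minus WT, of FPKM + 0.1) of each gene in the 10 remobilization genes and 6 lists of other nitrogen genes, with called genes filled red (higher in *kaku4-2*) or blue (lower) and a black line at the median of each list. The shaded band holds the 10th to 90th percentile of all genes tested, and *AMT1;2*, at -1.67, lies farthest from 0.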

How the data were processed

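RNA-seq libraries of rosette leaves from *kaku4-2* and WT plants (3 each) were analysed. ChIP-seq libraries of the same study were not analysed here. The authors aligned paired-end reads to TAIR10 with TopHat2 2.0.9, calculated FPKM with Cufflinks and deposited FPKM values per gene. The Cufflinks version, the annotation and the use of strand are not given in the sources used here. Genotype and replicate were taken from the library labels.

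From these values log2(FPKM + 0.1) was computed, and genes whose FPKM averaged 0.1 or more over the libraries were compared between genotypes with limma 3.58.1 (R 4.3.3; lmFit, eBayes with a trend, two-sided), and p-values were adjusted over these genes by the method of Benjamini and Hochberg. The study names a fold and p cutoff but no program for p. The pseudocount understates differences of low genes. Single ratios to *GLN2* were tested by exact permutation and adjusted by the method of Benjamini and Hochberg (scipy 1.17.1). Alternatives were other pseudocounts, filters, scalings and variance models, removal of a length trend (lowess, span 0.3), a replicate block, the ratio of means, and each library left out in turn. The fitting was tested on simulated data.

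The 10 genes and the lists were chosen with earlier results of these data known. Named outside the 10 were *KAKU4*, up to 3 called genes per list and direction, the 3 nearest profiles of *GLN1;1* and *GLN2*, and the phloem markers. Genes overlapping 2 of the 10, the photorespiration genes *GLDP2* and *DIT1* and the markers *LHCB2.1* and *PYK10* were named after their values were seen. Sequences came from RefSeq TAIR10.1. The deposited table keeps no counts, so precision was judged by the spread between libraries alone.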

Additional observations from a re-analysis of the deposited data

How the results depend on the processing

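The number of remobilization genes called higher in *kaku4-2*, 2 with all libraries, was 1 after removal of the length trend, without the trend of the prior variance and with a replicate block, 0 at an adjusted p of 0.05, and 1 to 3 when single libraries were left out, with *GDH1* called each time except at the adjusted p. It was 1 without *kaku4-2* replicate 3, WT replicate 2 or WT replicate 3. Of the other nitrogen genes, 3 called higher became 7 at the same FPKM sum, 1 with array weights, 0 at the adjusted p and 0 to 5 without single libraries, and 5 called lower became 2 with median ratio scaling, 1 at the same FPKM sum, 1 after quantile normalization, 3 with the block, 1 at the adjusted p and 1 to 5 without single libraries. The log2 difference of *GLN1;2* turned to 0.36 at the same FPKM sum and 0.32 after quantile normalization. At the same FPKM sum *GLN1;3* turned to 0.10 and *NRT1.7* to 0.16. *GLN1;4* turned to -0.069 after quantile normalization and, like *GDH3* and the ratio of *GLN1;1* to *GLN2*, changed sign without single libraries (-0.040 to 0.19 for *GLN1;4*, -0.35 to 0.75 for *GDH3*, -0.12 to 0.15 for the ratio). The cause was not tested.

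The ratio of cytosolic to plastid glutamine synthetase stayed lower in *kaku4-2*, with a log2 difference of -0.56 without *GLN1;4*, -0.45 after removal of the length trend and -0.66 to -0.38 without single libraries. *GDH2* was called in 5 of 18 alternatives. Same-numbered libraries did not deviate together (correlations of -0.16, -0.03 and -0.41). Deviations from the mean of so few libraries depend on each other, so these values cannot decide whether the numbers mark pairs. The labels do not say so either. The block gave 706 genes higher and 1017 lower, beside 1037 and 1370 without it. Over all genes, calls higher and lower were 2369 and 297 at the same FPKM sum, which moved the median of all genes to 0.42, 2126 and 1981 with array weights. Leaving out a WT library gave 1512 and 1892 (replicate 1), 600 and 892 (replicate 2) and 546 and 673 (replicate 3), and leaving out a *kaku4-2* library gave 1339 and 2428 (replicate 1) and 1258 and 2660 (replicate 2). At an adjusted p of 0.05 the calls were 50 higher and 49 lower, and ranged from 12 and 8 (without WT replicate 1) to 2173 and 2881 (array weights). The share of calls that were higher was 43.1%, and 51.0% with median ratio scaling, 51.6% after quantile normalization, 55.0% after removal of the length trend and 88.9% at the same FPKM sum.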
